A study of Mus musculus with 4 samples.

Results

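The 10 synaptotagmin genes Syt1, Syt2, Syt4, Syt6, Syt7, Syt9, Syt10, Syt11, Syt14 and Syt16 were followed across the cell classes and neuron clusters of the aged mouse hypothalamus. They were taken by gene symbol from count matrices of 32285 gene identifiers, and each symbol matched 1 row. The study set mice that had been given a graft of hypothalamic stem cells, made from pluripotent stem cells of human origin and labelled Transplanted, against controls, labelled Control, whose treatment is not described further. All mice were about 18 months old, and the material was nuclear RNA of frozen whole hypothalamus, read with a droplet 3' kit (Chromium v3.1). The strain, the sex and the number of mice in a library are not given in the sources used here, although the titles of the first Control and the first Transplanted library each join a pair of codes.

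Synaptotagmins are vesicle and membrane proteins with paired C2 domains, many of which bind calcium and phospholipids and so couple a calcium signal to membrane fusion. Syt1, Syt2 and Syt9 are known as the fast calcium sensors of synaptic vesicle release, and Syt7 as a slower, high-affinity sensor of asynchronous release. Syt4 and Syt11 lack a working calcium site in their first C2 domain and are known from dense-core vesicles and from endocytic membrane traffic, Syt6 and Syt10 belong to a subfamily linked by disulfide bonds, and Syt14 and Syt16 do not bind calcium. In the hypothalamus these proteins act in neurons that release both fast transmitters and peptides.

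The 4 deposited matrices hold only 2 distinct libraries. The first Transplanted matrix shared 3997 cell barcodes with the first Control matrix and the second shared 2144 with the second, which is 99.7% of either Control matrix, while every other pair of matrices shared 4. Gene totals of matched matrices differed by less than sampling noise, so each library was counted once, in its Control version (Control replicate 1 and Control replicate 2), and transplanted and control tissue cannot be told apart. The Control matrices held 8779880 and 4924563 unique molecular identifiers (UMIs) at a median of 1813 and 2049 per nucleus. After filtering, 6128 nuclei remained, among them 4415 neurons, 505 astrocytes, 660 oligodendrocytes, 206 oligodendrocyte precursors and 102 microglia. The named classes come from rebuilt clusters and listed markers. Of the 13 neuron clusters, 5 had a hypothalamic peptide gene as their first leading gene, namely Hcrt, Pmch, Avp, Sst and Cartpt. With 2 libraries and library as a block, every p-value rests on how far differences between groups varied from 1 library to the other. That spread is estimated jointly over all groups of a fit. The labels do not say that the libraries came from separate animals.

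Under the 2 labels the members had nearly the same totals. Over whole matrices Syt1 had 15622 and 7868 UMIs in the Transplanted matrices, against 15429 and 7925 UMIs in the Control matrices. The widest gap was that of Syt6, with 163 and 101 UMIs in the Transplanted matrices, against 149 and 103 UMIs in the Control matrices, or 9.40% more in the first pair. These are counts of the same nuclei, so no test was made.

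Levels are given as CPM, the UMIs of a gene scaled to all UMIs of a group of nuclei, first for Control replicate 1 and then for Control replicate 2. Between 5 and 8 of the 10 members were called higher in neurons than in each glial class, and Syt11 was the only one called lower in neurons, against both stages of the oligodendrocyte lineage. Syt10 lay above neurons in astrocytes in each library, without a call. Against astrocytes 7 of the 10 members were higher in neurons and none was lower, against oligodendrocytes 8 were higher and 1 lower, against oligodendrocyte precursors 5 were higher and 1 lower, and against microglia 7 were higher and none lower, in edgeR's quasi-likelihood test at an adjusted p under 0.05. Over all 12945 genes tested, 18.2% were called higher and 13.7% lower in neurons against astrocytes, 22.1% and 14.8% against oligodendrocytes, 9.54% and 7.36% against oligodendrocyte precursors, and 17.1% and 5.11% against microglia. The median log2 difference of the members was 2.81, 4.16, 2.29 and 7.43 against these classes in the same order, beside 0.22, 0.26, 0.29 and 1.41 for all genes tested. With genes that had no UMI in one of the groups set at the bound that a floor of 3 counts over the class allows, these medians were 2.81, 2.94, 0.81 and 1.16 for the members, beside 0.10, 0.15, 0.06 and 0 for all genes. All 10 members passed the filter of 20 UMIs in each library.

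**Figure D1:**
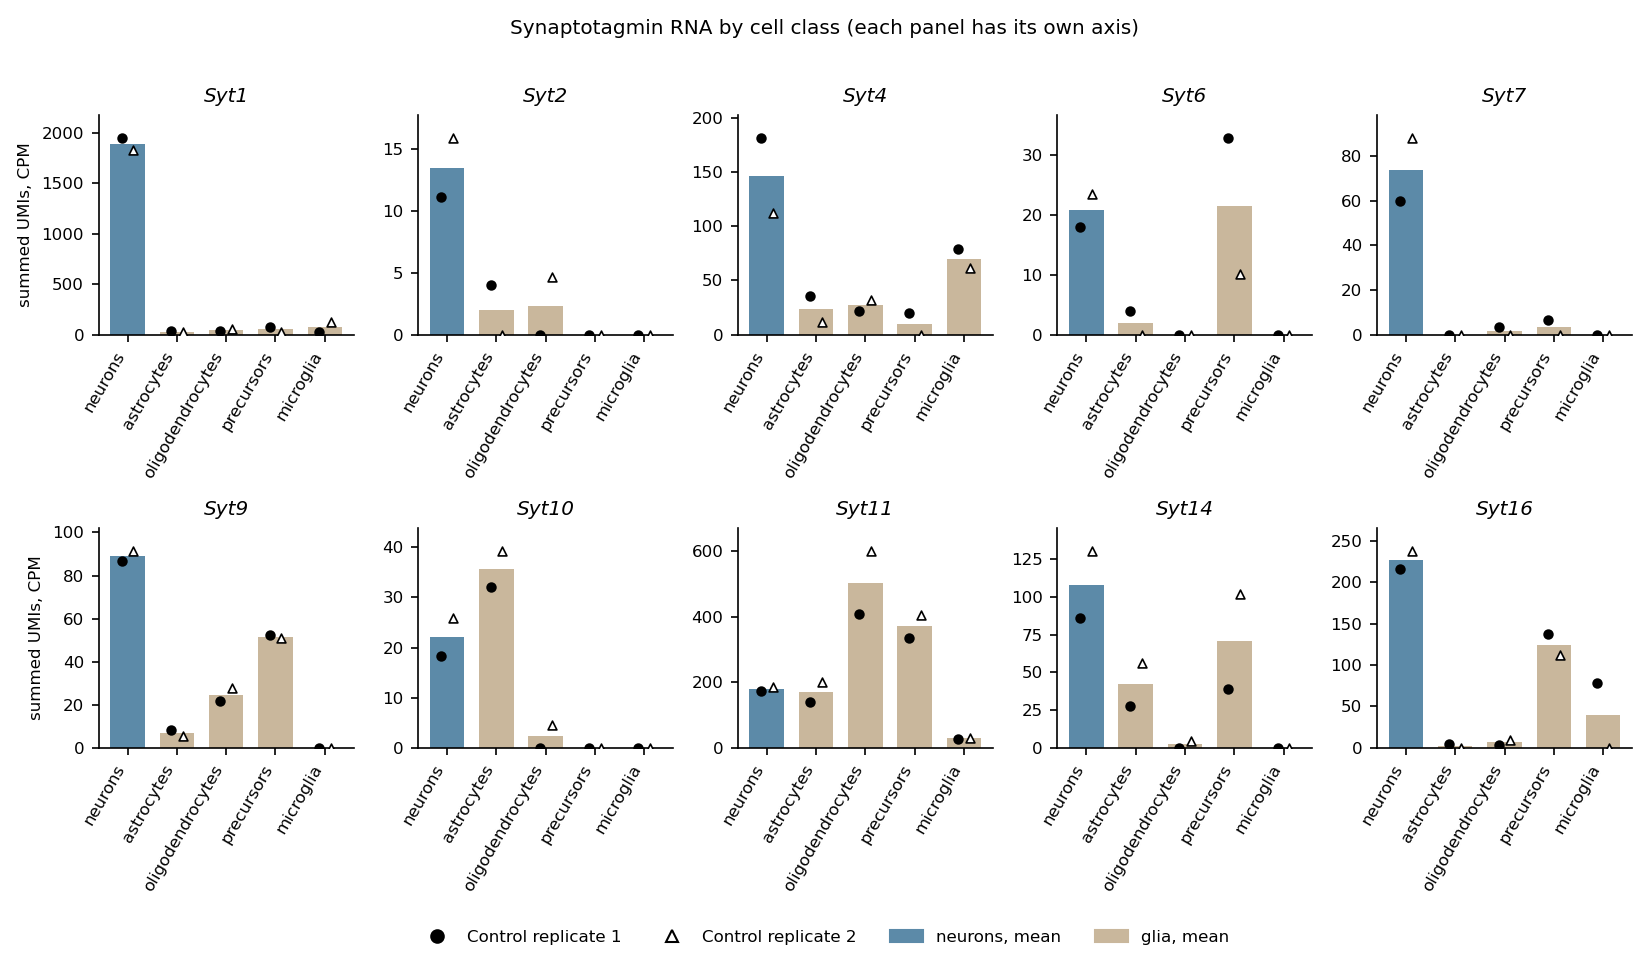
Level of each synaptotagmin in neurons and in the 4 glial classes, in CPM on the vertical axes, with bars for the mean of 2 libraries, circles for Control replicate 1 and triangles for Control replicate 2. Syt1 stood at 1942 and 1823 CPM in neurons, Syt11 reached 408 and 600 CPM in oligodendrocytes, and Syt10 reached 32.0 and 39.2 CPM in astrocytes.

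Among the fast sensors, Syt1, the main calcium sensor of synchronous release, had 1942 and 1823 CPM in neurons, against 32.0 and 22.4 CPM in astrocytes, 39.4 and 60.01 CPM in oligodendrocytes, 72.0 and 30.5 CPM in oligodendrocyte precursors and 26.2 and 122.7 CPM in microglia. Both neuronal values lay far above all 8 glial values. The log2 difference was 6.07 ± 0.25 (SE) against astrocytes (edgeR adjusted p = 1.05e-130), 5.22 ± 0.21 against oligodendrocytes (adjusted p = 1.08e-128), 5.13 ± 0.25 against precursors (adjusted p = 6.11e-88) and 5.63 ± 0.34 against microglia (adjusted p = 1.32e-57). A Syt1 UMI was seen in 83.7% and 84.4% of neurons at median depths of 2258 and 2631 UMIs, and in 2.67% and 4.20% of oligodendrocytes at 670.5 and 686.5 UMIs. With every nucleus thinned to 500 UMIs, which left out none, these shares were 52.8% and 50.5% of neurons, against 1.34% and 3.85% of oligodendrocytes. Over the 12 neuron markers, the glial libraries stood at a median of 2.39% to 10.53% of the neuronal level, with 0 to 5 markers at 0, and summed to 521 to 1716 CPM, against 26375 and 17083 CPM in neurons. The part of neuronal RNA in the low glial values of Syt1 and the other members was not tested.

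Syt9, also a fast sensor, had 86.6 and 91.2 CPM in neurons, and below them oligodendrocyte precursors at 52.4 and 50.9 CPM, oligodendrocytes at 21.5 and 27.7 CPM, astrocytes at 8.0 and 5.6 CPM and microglia with no UMI. Among the classes with UMIs, none of these neighbours in the order overlapped between libraries. The place of microglia among the glia is not set, since 3 counts there amount to 78.7 and 92.1 CPM. Neurons were higher by 3.63 ± 0.57 on the log2 scale against astrocytes (adjusted p = 1.74e-09; 3 UMIs there, ratio of totals 12.6 with a counting interval of 4.30 to 61.2) and by 1.80 ± 0.39 against oligodendrocytes (adjusted p = 2.02e-05), while the difference of 0.81 ± 0.42 against precursors did not pass (adjusted p = 0.194). Against microglia the call rested on 0 of 70724 UMIs there, so neurons were at least 2.08-fold higher, with 3 counts over the class as the floor. Syt2, the fast sensor best known from brainstem and spinal synapses, was scarce. It had 11.1 and 15.8 CPM in neurons, from 152 UMIs, and 1, 1, 0 and 0 UMIs in astrocytes, oligodendrocytes, precursors and microglia. No glial class passed the test for Syt2. The ratio of neurons to oligodendrocytes was 6.31 with a counting interval of 1.117 to 251.1.

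Syt7, the slow high-affinity sensor, had few UMIs in glia. It had 59.8 and 87.8 CPM in neurons, and 0, 1, 1 and 0 UMIs in astrocytes, oligodendrocytes, precursors and microglia. Neurons were at least 9.94-fold higher than astrocytes and at least 1.64-fold higher than microglia, and the ratio was 34.5 (counting interval 6.18 to 1365) against oligodendrocytes and 17.5 (3.13 to 690.6) against precursors. All 4 contrasts were called (adjusted p between 8.85e-11 and 7.13e-04), the one against precursors not with DESeq2 (adjusted p = 0.0745).

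The calcium-independent pair split. Syt4, known from dense-core vesicles of peptidergic neurons, had 181 and 112 CPM in neurons, against 36.0 and 11.2 CPM in astrocytes, 21.5 and 32.3 CPM in oligodendrocytes, 19.6 and 0 CPM in precursors and 78.7 and 61.4 CPM in microglia. The neuronal values lay above every glial one. Its log2 difference was 2.56 ± 0.36 against astrocytes (adjusted p = 2.39e-11), 2.46 ± 0.34 against oligodendrocytes (adjusted p = 8.04e-12) and 3.72 ± 0.56 against precursors (adjusted p = 5.42e-10), where 3 UMIs gave a ratio of totals of 13.1 with a counting interval of 4.49 to 63.8. Against microglia it was 1.98 ± 0.56 (adjusted p = 0.00287), but that class held 5 Syt4 UMIs, the ratio of totals was 2.22 with a counting interval of 0.951 to 6.86, and the call was lost with DESeq2 (adjusted p = 0.109) and with library totals in place of TMM factors (adjusted p = 0.338).

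Syt11, known in endocytosis and membrane repair, was highest in the oligodendrocyte lineage. It had 175 and 185 CPM in neurons, against 408 and 600 CPM in oligodendrocytes, 334 and 407 CPM in precursors, 140 and 202 CPM in astrocytes and 26.2 and 30.7 CPM in microglia. Both lineage classes lay above neurons in each library, and astrocytes overlapped with neurons. The log2 difference of neurons was -1.53 ± 0.15 against oligodendrocytes (adjusted p = 9.72e-23), -0.99 ± 0.21 against precursors (adjusted p = 2.26e-05), 3.55 ± 0.68 against microglia (adjusted p = 2.58e-06) and 0.10 ± 0.21 against astrocytes (adjusted p = 0.786). Microglia held 2 Syt11 UMIs, and the ratio of neurons to them was 6.30 with a counting interval of 1.74 to 52.1. A Syt11 UMI was seen in 34.1% and 37.7% of neurons, 25.4% and 33.2% of oligodendrocytes and 1.82% and 2.13% of microglia, whose median depths were 623 and 685 UMIs. Thinned to 500 UMIs, the shares were 8.24% and 9.78% of neurons, 19.3% and 22.4% of oligodendrocytes and 1.82% and 2.13% of microglia, so the order of neurons and oligodendrocytes turned once depth was equal. The shares before thinning went against the CPM and give no order of their own.

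Of the disulfide-linked subfamily, Syt10, known in mouse olfactory neurons for the release of insulin-like growth factor, had 18.4 and 25.9 CPM in neurons, against 32.0 and 39.2 CPM in astrocytes, from 8 and 7 UMIs. Astrocytes lay above neurons in each library, but the log2 difference of -0.71 ± 0.49 did not pass (adjusted p = 0.288). Oligodendrocytes held 1 Syt10 UMI and precursors and microglia none. Neurons were called higher than oligodendrocytes (adjusted p = 0.00569, ratio 10.4 with a counting interval of 1.86 to 413.5) and than precursors (adjusted p = 0.0255, at least 1.76-fold), and both calls were lost with DESeq2 (adjusted p = 0.102 and 0.111). Syt6, known from sperm and brain, had 18.0 and 23.5 CPM in neurons, against 32.7 and 10.2 CPM in precursors from 5 and 1 UMIs, which overlapped. Astrocytes held 1 Syt6 UMI and oligodendrocytes and microglia none, and neurons were called higher than astrocytes (adjusted p = 0.0182) and oligodendrocytes (adjusted p = 8.16e-04, at least 3.30-fold).

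The starts of Syt1, Syt11 and Syt10 are shown because these members carried the 3 patterns of level described here: neuronal, shared with the oligodendrocyte lineage, and highest in 1 neuron cluster. Each sequence is the stretch of 250 bases before the annotated start, from RefSeq on GRCm38.p6, 5′ to 3′ on the gene's strand, which is the minus strand for all 3 genes. RefSeq promoters of 8 of the 10 members were matched. Capitals mark GC boxes, GGGCGG on either strand.
Syt1 (chr10:109010976-109011225): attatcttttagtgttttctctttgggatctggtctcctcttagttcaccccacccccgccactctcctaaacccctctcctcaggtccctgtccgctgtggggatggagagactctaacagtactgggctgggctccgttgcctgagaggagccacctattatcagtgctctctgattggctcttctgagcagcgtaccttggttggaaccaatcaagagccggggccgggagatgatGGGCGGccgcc
Syt11 (chr3:88772600-88772849): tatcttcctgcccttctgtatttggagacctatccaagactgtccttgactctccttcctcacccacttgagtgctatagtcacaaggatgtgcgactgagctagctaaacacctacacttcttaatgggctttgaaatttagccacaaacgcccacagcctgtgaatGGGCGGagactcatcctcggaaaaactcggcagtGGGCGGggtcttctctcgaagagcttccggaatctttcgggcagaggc
Syt10 (chr15:89841861-89842110): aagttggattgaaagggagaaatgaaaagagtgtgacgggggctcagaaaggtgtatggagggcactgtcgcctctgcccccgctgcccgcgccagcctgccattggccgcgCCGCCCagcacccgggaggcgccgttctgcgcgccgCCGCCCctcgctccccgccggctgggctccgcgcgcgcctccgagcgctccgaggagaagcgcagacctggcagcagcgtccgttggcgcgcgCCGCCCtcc
The Syt1 window is that of the first of its listed starts, with a GC content of 56.4% and 8 CpG dinucleotides. A further listed start of Syt1, not shown, had 42.8% and 5, and no GC box. The Syt11 window had 51.2% and 9, and the Syt10 window had 72% and 32, beside medians of 52.4% and 6 over all 32851 promoters. GC boxes matched 1 time, 2 times and 3 times in Syt1, Syt11 and Syt10, and 32.7% of all promoters held at least 1. The E-box CACGTG, which 6.02% of all promoters held, and the CRE TGACGTCA, which 1.55% held, were searched on both strands and matched in none of these 3 windows. These matches only describe the letters of the windows.

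The members without calcium binding were found in both neurons and precursors. So were Syt6, Syt9 and Syt11, and Syt14 was also found in astrocytes. Syt16 had 216 and 237 CPM in neurons, against 138 and 112 CPM in precursors, 4.0 and 0 CPM in astrocytes, 3.58 and 9.23 CPM in oligodendrocytes and 78.7 and 0 CPM in microglia. The neuronal values were the highest in both libraries. Its log2 difference was 6.53 ± 0.57 against astrocytes (adjusted p = 6.71e-29), 5.14 ± 0.45 against oligodendrocytes (adjusted p = 4.11e-29), 3.30 ± 0.58 against microglia (adjusted p = 2.68e-07) and 0.86 ± 0.27 against precursors (adjusted p = 0.0117), the last lost with DESeq2 (adjusted p = 0.363). The classes low in Syt16 held 1, 3 and 3 UMIs, and the ratio of totals was 95.9 (counting interval 17.2 to 3788) against astrocytes, 37.0 (12.6 to 179) against oligodendrocytes and 5.27 (1.80 to 25.6) against microglia. Syt14 had 85.8 and 130.3 CPM in neurons, against 39.3 and 101.8 CPM in precursors, 28.0 and 56.0 CPM in astrocytes, 0 and 4.62 CPM in oligodendrocytes and none in microglia. Neurons were called higher than astrocytes by 1.38 ± 0.35 on the log2 scale (adjusted p = 3.80e-04), than oligodendrocytes (adjusted p = 3.27e-15) and than microglia (adjusted p = 2.05e-05), and not than precursors (0.74 ± 0.38, adjusted p = 0.196).

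Among glia alone most calls fell in precursors and astrocytes. Set against the mean of the other 3 glial classes, oligodendrocytes were higher for Syt11 by 2.42 ± 0.25 on the log2 scale (adjusted p = 3.22e-20), and precursors were higher for Syt11 by 1.69 ± 0.32 (adjusted p = 2.39e-06), for Syt16 by 4.12 ± 0.56 (adjusted p = 7.04e-12) and for Syt6, Syt9 and Syt14 (adjusted p = 0.00806, 0.00348 and 1.25e-04). Astrocytes were higher for Syt10 and Syt14 (adjusted p = 9.09e-05 and 0.00735) and lower for Syt16 (adjusted p = 0.0229), and microglia were lower for Syt11 (-4.36 ± 0.61, adjusted p = 4.44e-11). That made 3, 1, 5 and 1 of 10 members called in astrocytes, oligodendrocytes, precursors and microglia, where 15.1%, 15.5%, 13.0% and 12.4% of all genes were called, so that the counts of oligodendrocytes and microglia were no higher than the background. No fold is given for members with a class at 0. Syt1, Syt2, Syt4 and Syt7 were called in no glial class, with 12, 1, 11 and 0 UMIs in astrocytes. Among nuclei of at least 1000 UMIs the Syt11 difference was 0.70 in oligodendrocytes (adjusted p = 0.233) and 0.47 in precursors (adjusted p = 0.512), with 46 and 31 oligodendrocytes and 3 and 1 microglia left.

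The scale of the comparisons with microglia was uncertain. Their TMM factors were 1.64 and 1.79, while those of the other classes lay between 0.813 and 0.965, and library totals in place of the factors moved the median over all genes by -0.96 on the log2 scale for neurons against microglia. The differences of Syt1, Syt11 and Syt16 from microglia were larger than that shift. That of Syt4, at 1.98, was larger too but lost its call with library totals, so the size alone does not secure a call.

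The lists set beside the family, other synaptotagmins, related C2-domain genes, vesicle fusion machinery, synaptic vesicle proteins and dense-core vesicle cargo and enzymes, differed in how many of their genes were higher in neurons. Against astrocytes 4 of 5, 7 of 12, 8 of 15, 8 of 10 and 10 of 12 of those tested were called higher and 0, 0, 2, 0 and 2 lower, with medians of 3.28, 2.90, 1.59, 2.50 and 2.46 on the log2 scale, and of 2.87, 1.67, 1.59, 2.49 and 2.46 with genes at 0 set at their bound. Cpe, a peptide-processing carboxypeptidase, was lower in neurons than in astrocytes, with 218 and 216 CPM in neurons and 1584 and 1305 CPM in astrocytes (log2 difference -2.74 ± 0.13, adjusted p = 6.33e-100). In the same order of lists, 5 of 5, 6 of 12, 11 of 15, 8 of 10 and 12 of 12 were higher in neurons than in oligodendrocytes, 2 of 5, 3 of 12, 6 of 15, 7 of 10 and 7 of 12 than in precursors, and 2 of 5, 3 of 12, 8 of 15, 8 of 10 and 10 of 12 than in microglia. In these 3 contrasts 2 listed genes were called lower. The synaptotagmin-like gene Sytl2 was lower in neurons than in oligodendrocytes, at 13.8 and 19.2 CPM in neurons and 336 and 554 CPM in oligodendrocytes (-4.79 ± 0.21, adjusted p = 2.08e-108). Mctp1, a C2-domain protein of the endoplasmic reticulum, was lower in neurons than in microglia, at 252 and 264 CPM in neurons and 1364 and 921 CPM in microglia (-1.27 ± 0.22, adjusted p = 7.76e-08). Of the other synaptotagmins Syt3, Syt5, Syt12, Syt13 and Syt17 were tested, Syt8 had no UMI and Syt15 had 2.

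Between transmitter classes Syt10 was higher in GABAergic than in glutamatergic neurons, and Syt7 and Syt9 were lower. The 945 GABAergic neurons lay in clusters where Slc32a1 was at least 2-fold above Slc17a6, the 1326 glutamatergic neurons in clusters where the reverse held, and 2144 neurons lay in mixed clusters. In all, 3 of 10 members were called, where 5.13% of all genes were. Syt10 had 45.1 and 71.3 CPM in GABAergic neurons, against 12.7 and 11.02 CPM in glutamatergic neurons (2.06 ± 0.28, adjusted p = 1.16e-11), with no overlap. This rested on cluster 7: without its nuclei the difference was 0.92 (adjusted p = 0.135). Syt7 had 43.1 and 66.3 CPM in GABAergic neurons, against 73.6 and 114.2 CPM in glutamatergic neurons (-0.82 ± 0.18, adjusted p = 2.40e-04), lower in each library. Syt9 had 77.5 and 72.6 CPM in GABAergic neurons, against 115 and 131 CPM in glutamatergic neurons (-0.73 ± 0.16, adjusted p = 1.25e-04), with no overlap. Without cluster 7 the difference was -0.60 for Syt7 (adjusted p = 0.0305) and -0.74 for Syt9 (adjusted p = 3.43e-04). The Syt7 call was lost with DESeq2 (adjusted p = 0.283), and that of Syt9 at a finer clustering (-0.40, adjusted p = 0.083). For the 7 members not called the log2 difference ran between -0.55 for Syt6 and 0.14 for Syt4, and Syt1 had 2115 and 2133 CPM in GABAergic neurons, against 2058 and 1835 CPM in glutamatergic neurons.

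**Figure D2:**
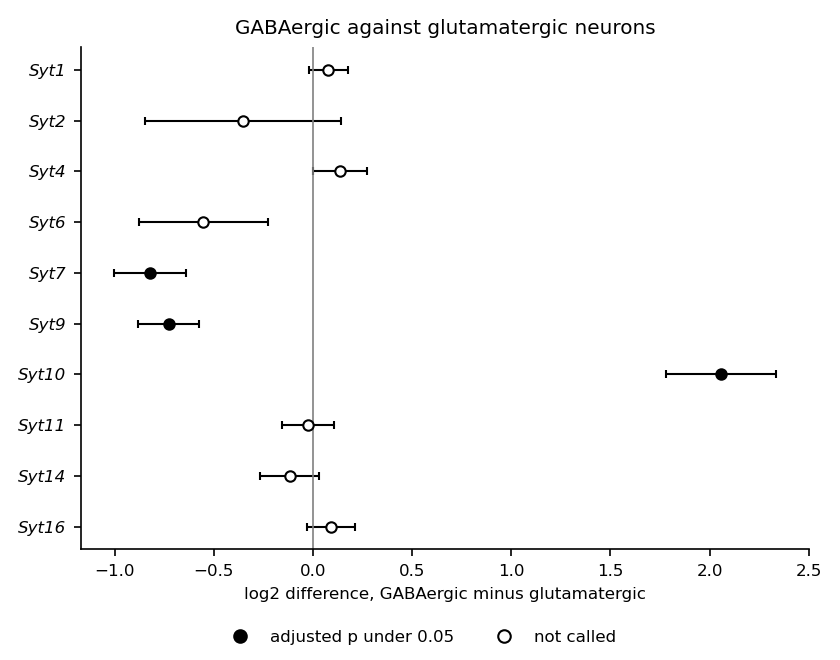
Log2 difference of each synaptotagmin in GABAergic against glutamatergic neurons, on the horizontal axis, with standard errors as bars, filled points for calls and open points for members that did not pass. Syt10 stands at 2.06, Syt7 at -0.82 and Syt9 at -0.73, and the other 7 members lie between -0.55 and 0.14.

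The family was not uniform over neurons. Among the 9 neuron clusters with at least 20 nuclei in each library, 9 of 10 members differed between clusters, where 22.5% of the 12107 genes tested did (F test in edgeR), and Syt14 did not pass (adjusted p = 0.250). All synaptotagmins were left out of the genes used for clustering, but the clusters come from the same nuclei. Over all 13 neuron clusters the mean level of Syt1 ran from 419 to 3020 CPM, that of Syt7 from 3.76 to 221.5 CPM, that of Syt10 from 0 to 232.6 CPM and that of Syt9 from 47.2 to 216.1 CPM. Syt11, Syt14 and Syt16 kept within 1.86-fold, 1.74-fold and 2.06-fold between the lowest and the highest cluster. Neighbours in the order of clusters seldom stood apart in both libraries: 7 of the 12 neighbouring pairs did for Syt1, 4 for Syt10, none for Syt4 and Syt14, and 1 or 2 for the other members.

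**Figure D3:**
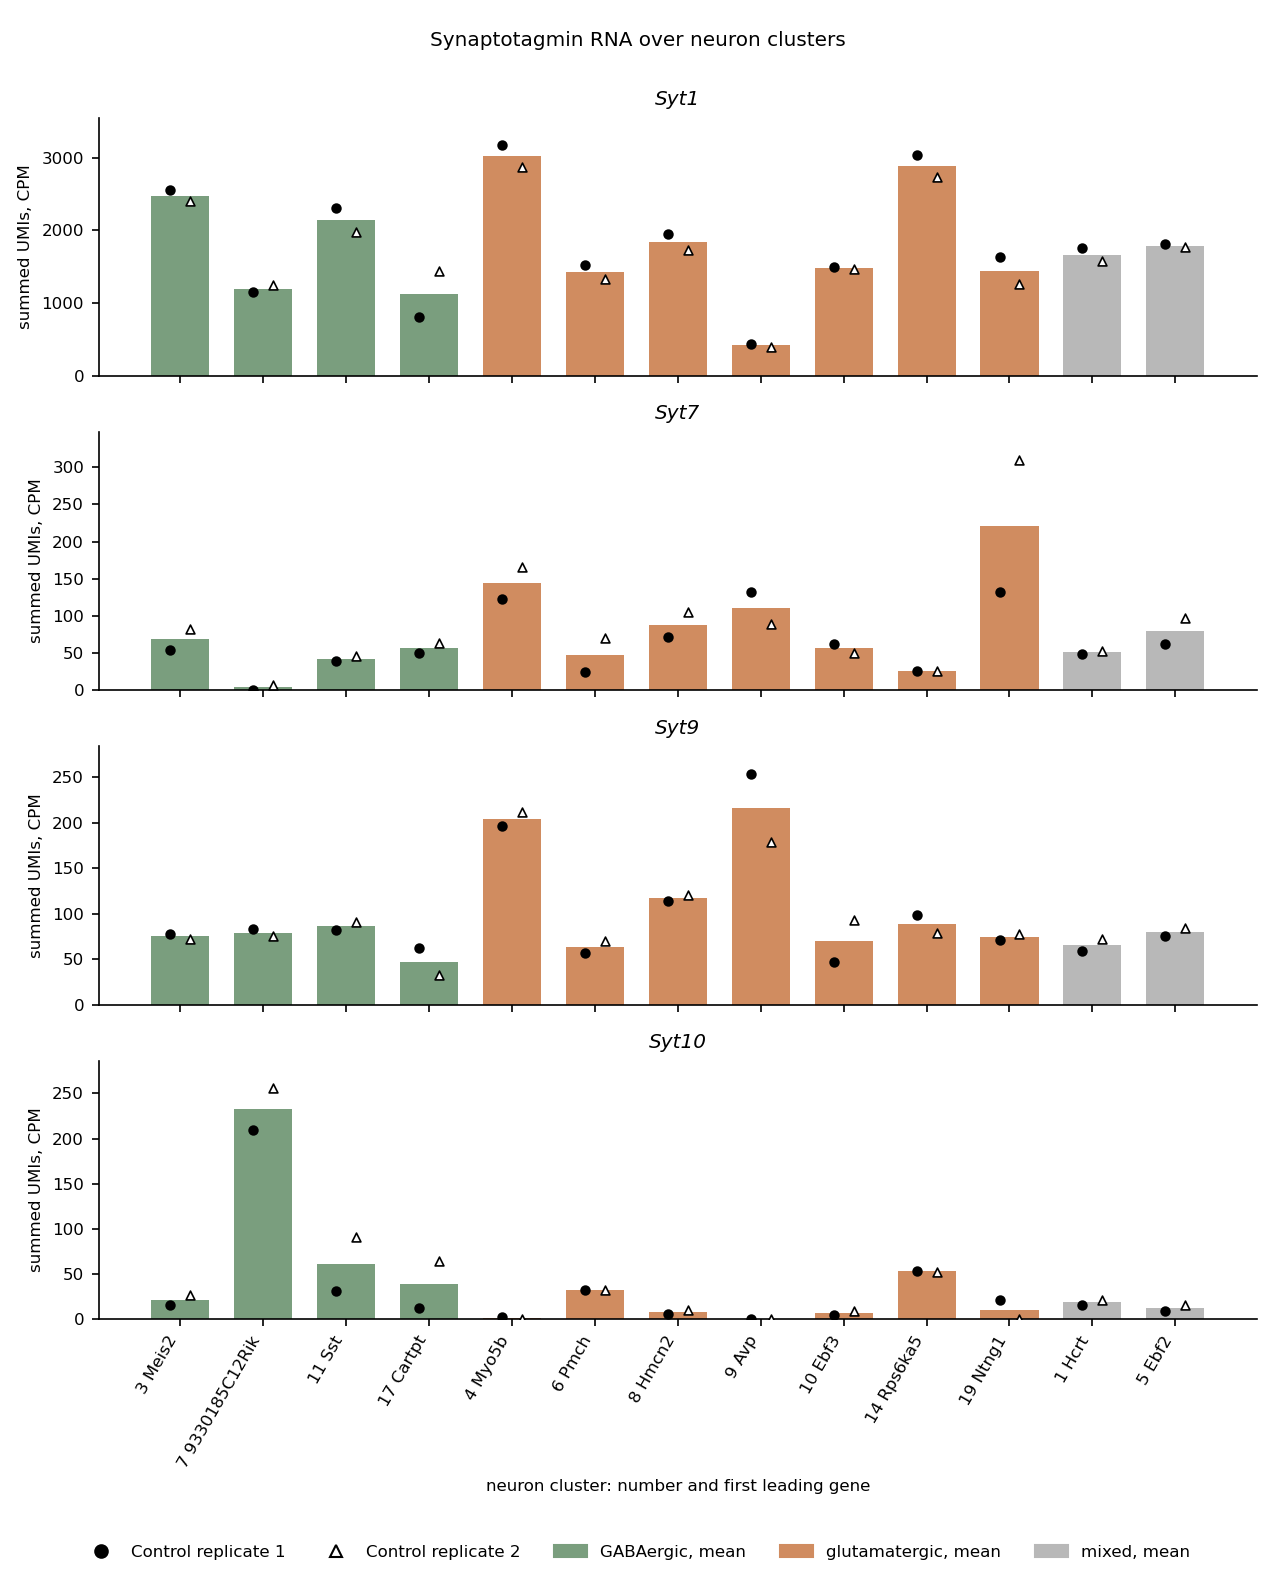
Level of Syt1, Syt7, Syt9 and Syt10 in the 13 neuron clusters, in CPM on the vertical axes, with bars for the mean of 2 libraries coloured by transmitter class, circles for Control replicate 1 and triangles for Control replicate 2. Clusters are named by number and first leading gene. Syt10 stood at 209 and 256 CPM in cluster 7, and Syt1 at 436 and 402 CPM in cluster 9.

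Syt10 was highest in cluster 7, which held 43 and 34 of its 143 and 108 neuronal UMIs. In this cluster, which holds 183 nuclei and is led by 9330185C12Rik and by Vipr2 and Prok2, both known from the suprachiasmatic nucleus, the circadian pacemaker, it had 209 and 256 CPM, against 30.9 and 91.2 CPM in cluster 11, the next in order. The gene has long served to mark suprachiasmatic neurons in mice. The log2 difference from the mean of the other clusters was 4.16 ± 0.29 (adjusted p = 5.92e-33). A Syt10 UMI was seen in 25.7% and 34.3% of cluster 7 nuclei at median depths of 1551 and 1684.5 UMIs, against 3.90% and 6.03% of all neurons at 2258 and 2631 UMIs, 1.97% and 3.48% of astrocytes at 752 and 811 UMIs and 0% and 0.350% of oligodendrocytes at 670.5 and 686.5 UMIs. Thinned to 500 UMIs, the shares were 12.4% and 11.4% in cluster 7, against 1.08% and 1.66% of all neurons, 1.97% and 1.49% of astrocytes and 0% and 0.350% of oligodendrocytes. The share of all genes called in cluster 7 was 9.37%, and 5 of 10 members were called there.

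The other members of cluster 7 moved both ways. Syt4 was higher, at 253 and 158 CPM (0.63 ± 0.20, adjusted p = 0.0241). Syt1 was lower, at 1154 and 1242 CPM (-0.78 ± 0.12, adjusted p = 5.96e-09). Syt7 had 1 UMI in the cluster against 830 in the other neurons, whose level was 24.2-fold higher with a counting interval of 4.33 to 957 (adjusted p = 4.40e-07). Syt6 had no UMI there and 238 in the other neurons, which were at least 2.31-fold higher (adjusted p = 0.0151), a call lost with DESeq2 (adjusted p = 0.0742). Syt2 also had no UMI there, and its 152 UMIs in other neurons put them at least 1.48-fold higher, without a call.

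Cluster 4, led by Myo5b, B230323A14Rik and Cpne9 and glutamatergic, was called the opposite way to cluster 7 for 3 members, Syt1, Syt7 and Syt10. Syt1 had 3169 and 2871 CPM there (0.92 ± 0.09, adjusted p = 1.04e-19), Syt7 had 123 and 166 CPM (1.90 ± 0.22, adjusted p = 3.54e-14) and Syt9 had 197 and 211 CPM (1.51 ± 0.16, adjusted p = 3.11e-16). A Syt1 UMI was seen in 98.0% and 100% of its 205 and 91 nuclei. Syt11 was higher by 0.44 ± 0.15 (adjusted p = 0.0272), lost with DESeq2 (adjusted p = 0.0634). Syt10 had 1 UMI in cluster 4 and 250 in the other neurons, whose level was 16.9-fold higher with a counting interval of 3.00 to 669.5 (adjusted p = 3.99e-04), and Syt16 was lower, at 150 and 112 CPM (-0.59 ± 0.16, adjusted p = 0.00326). Syt6 and Syt2 were scarce in cluster 4, as in cluster 7. It held 2 Syt6 UMIs, and the level of the other neurons was 7.97-fold higher with a counting interval of 2.18 to 66.2, and 3 Syt2 UMIs, with a ratio of 3.35 (1.13 to 16.4), and neither passed the test. The 6 calls in cluster 4 stand beside 13.9% of all genes called there. Clusters 4 and 7 are each part of the mean that the other was set against. For Syt7 the mean beside cluster 4 thus includes cluster 7 with its 1 UMI, while all neurons together had 59.8 and 87.8 CPM.

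**Figure D4:**
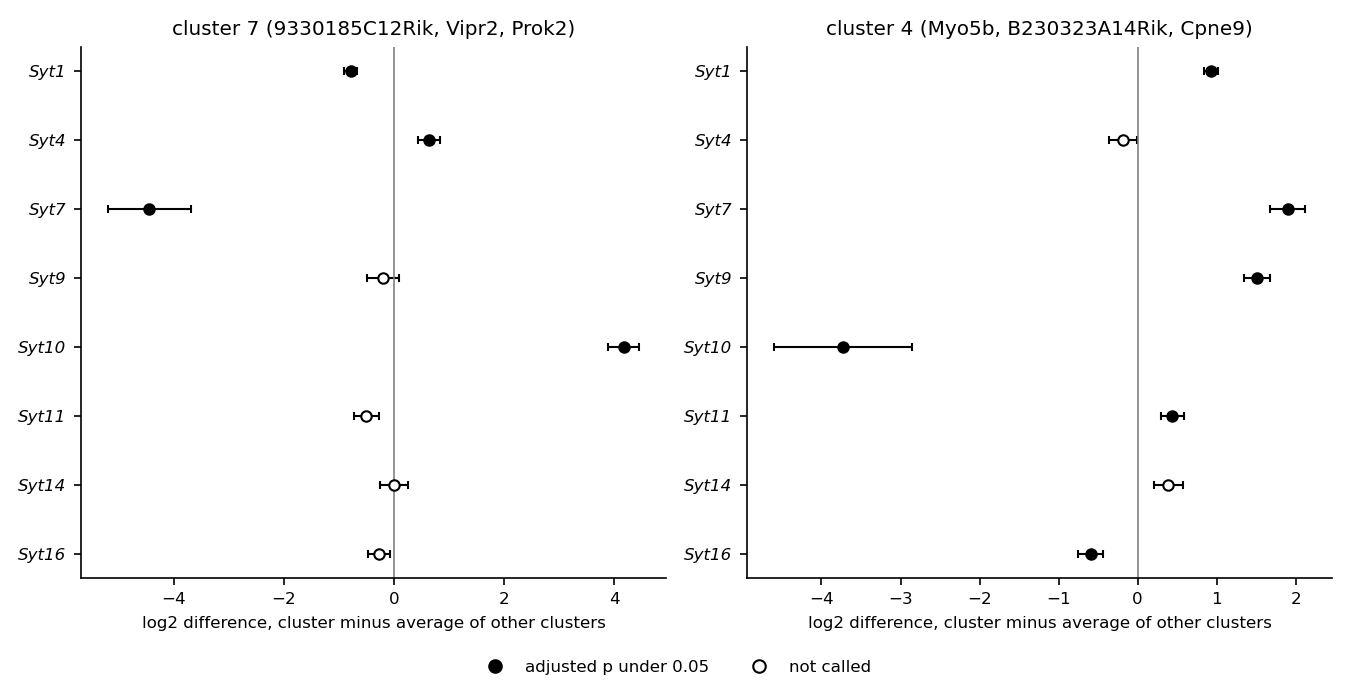
Log2 difference of each synaptotagmin in cluster 7 and in cluster 4 from the mean of the other neuron clusters, on the horizontal axes, with standard errors as bars, filled points for calls and open points for members that did not pass; Syt2 and Syt6 are left out because cluster 7 held no UMI of either and cluster 4 held 3 and 2. Syt10 stands at 4.16 in cluster 7 and -3.73 in cluster 4, and Syt7 at -4.45 in cluster 7 and 1.90 in cluster 4. Either cluster is part of the mean used for the other.

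Syt2 was higher in clusters 5 and 8, and Syt6 in cluster 8. In cluster 5, led by Ebf2, Ebf1 and Gm28526, Syt2 had 19.1 and 24.9 CPM (adjusted p = 3.81e-07), Syt7 had 61.5 and 97.6 CPM (0.84 ± 0.18, adjusted p = 1.93e-04) and Syt4 had 209 and 107 CPM (0.33 ± 0.11, adjusted p = 0.0288), the last lost with DESeq2 (adjusted p = 0.640) and with library totals (adjusted p = 0.0629). In cluster 8, led by Hmcn2, Gpr149 and Hydin and glutamatergic, Syt2 had 16.9 and 18.5 CPM (adjusted p = 0.00183) and Syt6 had 31.9 and 58.6 CPM (adjusted p = 1.85e-06), while Syt7 at 71.4 and 104.9 CPM (1.03 ± 0.22, adjusted p = 1.30e-04), Syt9 at 114 and 120.4 CPM (0.57 ± 0.16, adjusted p = 0.00502) and Syt16 at 279 and 247 CPM (0.46 ± 0.12, adjusted p = 0.00209) were higher too. Both Syt2 values of cluster 5 lay above those of cluster 8, and both of cluster 8 above those of cluster 1. They rested on 42 and 41 UMIs in cluster 5, 18 and 6 in cluster 8 and 14 and 8 in cluster 1. The counting intervals of these neighbours overlapped in each library, so the order among these clusters is not set. Of all genes 6.98% were called in cluster 5 and 9.23% in cluster 8, beside 3 and 5 of 10 members. These differences are from the mean log level of the other clusters. That mean includes cluster 7, which held 1 Syt7 UMI and no UMI of Syt2 or Syt6. For Syt2, all neurons had 11.1 and 15.8 CPM. The second value lay within the counting interval of cluster 8 in Control replicate 2 (6.80 to 40.3 CPM). For Syt6, all neurons had 18.0 and 23.5 CPM, both below cluster 8. All neurons together had 59.8 and 87.8 CPM of Syt7, so cluster 5 lay near their level. They had 181 and 112 CPM of Syt4, above cluster 5 in Control replicate 2.

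The remaining clusters showed 1 to 3 calls each. In cluster 11, led by Sst, Calcrl and Il1rapl2, 4.15% of genes were called. There Syt4 was lower, at 67.4 and 30.4 CPM (-1.48 ± 0.26, adjusted p = 3.05e-06), and Syt10 was higher, at 30.9 and 91.2 CPM (1.59 ± 0.47, adjusted p = 0.0231). Syt6 was called higher in cluster 11 (adjusted p = 0.0226) but had 15 UMIs in Control replicate 1 and 0 in Control replicate 2, so that its direction turned without Control replicate 1. In cluster 3, with Meis2 and Gm38505 among its leading genes, Syt1 was higher, at 2548 and 2397 CPM (0.51 ± 0.09, adjusted p = 2.29e-06), where 4.4% of genes were called. In cluster 1, led by Hcrt, Hdc and Gal, Syt6 was higher, at 28.0 and 26.3 CPM (adjusted p = 0.0141), and Syt9 lower, at 58.9 and 72.1 CPM (-0.54 ± 0.16, adjusted p = 0.0194). There 5.1% of genes were called, and neither member's call held with DESeq2 (adjusted p = 0.311 and 0.0766). For Syt6 the mean of the other clusters includes cluster 7 with no UMI and cluster 4 with 2. All neurons had 18.0 and 23.5 CPM of Syt6. The second value lay within the counting interval of cluster 1 in Control replicate 2 (15.9 to 41.1 CPM). Syt1 was the only member called in cluster 6, led by Pmch, Tac1 and Lmx1a, at 1529 and 1335 CPM (-0.37 ± 0.10, adjusted p = 0.0177, 3.4% of genes called), and in cluster 10, led by Ebf3, Tafa1 and Gm20754, at 1496 and 1465 CPM (-0.36 ± 0.11, adjusted p = 0.0394, 3.52% of genes called).

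With clusters of at least 10 nuclei in each library admitted, a choice made after seeing the data, 4 small clusters entered the fit and 24.0% of genes differed between clusters. In cluster 9, led by Avp, Oxt and Caprin2, the genes of vasopressin and oxytocin neurons, Syt1 had 436 and 402 CPM, below every other neuron cluster (-2.20 ± 0.21, adjusted p = 1.65e-24), while Syt9 had 254 and 179 CPM (1.30 ± 0.30, adjusted p = 5.28e-04), and 5.65% of genes were called. The cluster held 29 and 19 nuclei at median depths of 3068 and 3673 UMIs, above those of all neurons, and a Syt1 UMI was seen in 51.7% and 57.9% of them. In cluster 14, led by Rps6ka5, Fgf13 and Gm38505, Syt1 was higher (0.73 ± 0.13, adjusted p = 6.18e-06) and Syt4 lower (-1.27 ± 0.36, adjusted p = 0.0232), with 2.63% of genes called. In cluster 17, led by Cartpt, Lepr and Col18a1, Syt1 was lower, at 805 and 1439 CPM (-1.05 ± 0.18, adjusted p = 2.37e-07), with 3.95% called, and in cluster 19, led by Ntng1, Tcf7l2 and Vav3, Syt7 was higher, at 133 and 310.4 CPM (1.93 ± 0.37, adjusted p = 1.63e-05), with 2.21% called. The shares of genes called in this fit were 5.42%, 6.95%, 13.3%, 10.9%, 4.1%, 7.71%, 10.9%, 3.5% and 3.77% in clusters 1, 3, 4, 5, 6, 7, 8, 10 and 11. In it the lower calls of Syt1 in clusters 6 and 10 and of Syt10 and Syt16 in cluster 4 no longer passed, and Syt1 in clusters 5, 8 and 11 and Syt16 in clusters 3 and 5 were called higher.

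Among the lists, 2 of 5 other synaptotagmins (Syt5 and Syt17), 10 of 12 related C2-domain genes, 8 of 15 fusion genes, 7 of 10 synaptic vesicle genes and 9 of 12 dense-core genes differed between neuron clusters. The smallest adjusted p of each were those of Syt5 (7.44e-06), Mctp1 (4.16e-41), Cadps2, a priming factor of dense-core vesicles (7.86e-79), Synpr, the synaptic vesicle protein synaptoporin (2.87e-45), and Pcsk2, a prohormone convertase (5.48e-33).

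Across the 9 tested clusters, as a description of 9 points that share libraries and depth, the level of Syt7 ran against that of Syt10 (Pearson r = -0.94) and with that of Syt1 (r = 0.74). These were the lowest and the highest r of all pairs of members. The ends of the Syt7 and Syt10 pair were cluster 7, with 1 Syt7 UMI, and cluster 4, with 1 Syt10 UMI. Whether it held over the remaining clusters was not tested. Of 6993 genes compared, the most alike in pattern were Ccdc34, Zfr and Gm28960 for Syt10 (r = 0.97, 0.97 and 0.95), Cntnap5c, Gm15398 and Pcdh15 for Syt7 (0.98 each), Carnmt1, Myo18a and Samm50 for Syt1 (0.94, 0.93 and 0.93), Ankrd24, Prkcb and Phlpp2 for Syt2 (0.92, 0.89 and 0.88), and Phlpp1, Cnih3 and 4930567K20Rik for Syt9 (0.95, 0.94 and 0.93). For Syt4 they were Poldip3, Tbc1d32 and Map1a (0.98, 0.97 and 0.97), for Syt6 Armc9, Dlk2 and Igdcc4 (0.97, 0.96 and 0.94), for Syt14 Gm30054, Chp1 and Tnks2 (0.94, 0.90 and 0.90) and for Syt16 Prkce, Dlgap2 and March3 (0.97, 0.96 and 0.95). Those named for Syt11 include Las1l and Arhgap44 (0.95 and 0.93). All these r were picked as the highest of 6993 over 9 points, and no reference for such a maximum was made. Syt14, which was not called between clusters, reached 0.94 as well.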

How the data were processed

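The authors deposited filtered gene-by-barcode matrices of raw UMI counts, 1 per sample. Reads were processed with Cell Ranger 5.0.1, per the submitters' processing notes, which name GRCh38 although the samples are mouse; the mouse build and whether intronic reads were counted are not given in the sources used here. Nuclei were kept if 300 genes or more were seen and mitochondrial UMIs made up no more than 5%. Scrublet marked 30 of 6158 nuclei (0.487%; 0.125% in Control replicate 1 and 1.16% in Control replicate 2), which were removed; at that rate the caller did not work in Control replicate 1, so doublets remain possible. Clusters came from 3000 variable genes without the listed genes, 40 components, 20 neighbours and leiden resolution 1 (scanpy 1.11.5), which gave 19 clusters named from listed markers. Unscaled values, the setting aside of cluster 16 (63 nuclei with oligodendrocyte and neuron markers) and leaving cluster 15 (177 nuclei) unnamed were chosen after the data were seen.

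Counts were summed per library and group and tested with edgeR 4.0.16 (quasi-likelihood, TMM factors, library as a block, genes with at least 20 UMIs in each library, Benjamini-Hochberg over all genes tested) in R 4.3.3. The block is set by the design, since groups of 1 library share its material. The scripts were tested on simulated counts: 50% of genes changed 4-fold were recovered for neurons against astrocytes, 15% against microglia, 81% for GABAergic against glutamatergic neurons and 62% for cluster 7, and 5%, 1%, 21% and 14% of those changed 2-fold. Counting intervals (exact, 95%) and the floor of 3 counts cover counting error only. Folds given as at least use that floor, and their exact 95% lower bounds were lower. These were 1.69 for Syt9 against microglia, 2.66 for Syt6 against oligodendrocytes and 1.42 for Syt10 against precursors. For Syt6 and Syt2 in cluster 7 they were 1.87 and 1.19. All members are named in the comparisons of neurons with glia and among glia. Between transmitter classes and for single clusters, mainly the members called are named. Other genes are named by the smallest adjusted p of their list or the highest correlation of log2(CPM + 5) among genes of at least 20 CPM. The members and lists were chosen with earlier results of these data known. Alternatives included DESeq2 1.42.0, other scalings and filters, and thinned nuclei. A few genes among cluster leaders and correlated genes are not reported here.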

Additional observations from a re-analysis of the deposited data

How the results depend on the processing

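Of 2751 values recomputed under alternative settings, 2461 kept their direction and their side of the threshold, or moved by less than their spread, and 5 reversed. The total includes members not called in the first place, 190 values of the Transplanted matrices, which hold the same nuclei, and values of single libraries without a test. With DESeq2 19 of 175 values were weaker and 1 stronger. With no replicate block 22 of 190 were weaker, and thinned to 500 UMIs 24 of 152, with 0 stronger in either. Neurons were called different from precursors for 6 members, and for 3 with DESeq2. The 10 calls among glia became 16 with cluster 16 kept as oligodendrocytes, which also turned Syt14 to 3.17 and Syt16 to 2.18 on the log2 scale in oligodendrocytes against other glia. With nuclei thinned to 500 UMIs, which leaves fewer counts, the 3 calls between GABAergic and glutamatergic neurons became 1 and the 9 members that differed over neuron clusters became 3. Syt11 in astrocytes against other glia reversed to -1.17 among nuclei of at least 1000 UMIs, Syt1 in GABAergic against glutamatergic neurons to -0.87 at resolution 0.5, and Syt6 in cluster 11 to -3.87 without Control replicate 1, beside 2.26 without Control replicate 2. The cause of the other changes was not tested. With no replicate block, 7, 9, 5 and 7 members were called in neurons against astrocytes, oligodendrocytes, precursors and microglia, 10 results among glia, 1 member between transmitter classes and 6 over neuron clusters. The counts of calls under these settings have no share of all genes called beside them. Whether the members changed more often than other genes was not tested. Leaving out a library gave values without a test, and called differences other than Syt6 in cluster 11 kept their direction. Without Control replicate 1, neurons differed by 3.23 for Syt4 from astrocytes, by 1.67 for Syt4 from oligodendrocytes, by 5.92 for Syt1 from precursors and by 4.74 for Syt1 from microglia, and cluster 11 by 2.22 for Syt10. Without Control replicate 2, neurons differed from microglia by 7.10 for Syt1 and by 2.37 for Syt16. Syt16 against oligodendrocytes ran from 4.50 to 5.78. Library totals in place of TMM factors moved the median of all genes by 0.97 for microglia and by -0.29, -0.37 and -0.24 for astrocytes, oligodendrocytes and precursors against other glia. The alternative without neuron clusters led by markers of another class was not run, because no cluster met it, and counts of calls among glia and against microglia were not made at 1000 UMIs, where too few microglia remained. DESeq2 gave 15 adjusted p as missing, which were kept so. Depth limits the glial values, since 1547 nuclei held under 1000 UMIs and microglia held 70724 UMIs in all.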

Other observations

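Cluster 15 stayed without a cell type name. It holds 177 nuclei and is led by Col23a1, Fndc3c1 and Pdzrn3. Syt11 had 96.2 and 149 CPM there, Syt14 had 78.7 and 66.2 CPM, Syt1 had 184 and 66.2 CPM, and Syt2 and Syt7 had no UMI. Syt10 had 8.75 and 49.7 CPM, from 1 and 3 UMIs. Neuron markers stood at a median of 10.7% and 6.28% of the neuronal level in cluster 15.

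Cluster 16 holds 63 nuclei and has Prr5l and St18, genes of oligodendrocytes, among its leading genes. Syt1 had 1606 and 1843 CPM there, Syt7 had 61.5 and 68.6 CPM and Syt11 had 197 and 137 CPM. Its neuron markers stood at a median of 82.4% and 73.3% of the neuronal level, and its median depth was 3585 and 5134.5 UMIs.

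A finer clustering, at resolution 2, gave 22 neuron clusters with at least 20 nuclei in each library. Syt10 was again highest where 9330185C12Rik, Vipr2 and Prok2 led, at 226 and 262 CPM in 177 nuclei, followed by 31.1 and 73.4 CPM in the cluster led by Sst, Lmo7 and Calcrl. Syt2 reached 43.7 and 61.5 CPM in a cluster of 146 nuclei led by Gm28526, Gm12082 and Ebf1, from 15 and 7 UMIs. Syt1 was lowest, at 808 and 929 CPM, in a cluster led by Gm49678, Npsr1 and Cbln2. These values were not tested.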
